A study of Homo sapiens with 8 samples.

Results

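The translation factors examined were the initiation factors (EIF genes), the elongation factors (EEF genes), the termination factors ETF1 and GSPT1, and the cytoplasmic poly(A)-binding proteins PABPC1 and PABPC4. Members were chosen by gene symbol alone, and the rule used no measured value. It found 876 skipped-exon events in 63 genes among the 123924 events and 13424 gene symbols of the deposited tables, with 598 of 82355 events in MCF10A, 722 of 98244 in HMLE TWIST and 444 of 56675 listed for both. The 876 events were 528 different exons, since an exon is listed again for each pair of neighbouring exons. The rule also took in EIF1AD and the antisense RNAs EIF1B-AS1 and EIF3J-AS1, none of which had a testable event.

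RNA from 2 breast epithelial cell lines was sequenced in 8 libraries, in 4 groups of 2 biological replicates. MCF10A is a non-tumorigenic line, and HMLE-TWIST (HMLE TWIST below) is an immortalised line that carries the transcription factor TWIST from a retroviral pBabe vector. Cells of each line received the solvent DMSO, which serves as the control, or 10 µM emetine, and were collected after 24 hours. There was no HMLE culture without TWIST, so a difference between the lines cannot be told apart from TWIST, cell origin or culture. The tables hold splicing events and no expression levels, so epithelial markers could not be checked.

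Translation of an mRNA begins when the EIF4 factors bind its cap and unwind its leader, EIF3 and the EIF2 ternary complex bring the small ribosomal subunit with the initiator tRNA, and EIF5B joins the large subunit. The EEF1 factors then deliver aminoacyl-tRNAs, EEF2 moves the ribosome by a codon, and ETF1 with GSPT1 releases the finished chain. Emetine is a plant alkaloid that blocks elongation on the ribosome. Nonsense-mediated decay destroys mRNAs with an early stop codon and needs translation to recognise them. A change of splice-form share can therefore arise from splicing or from the decay of a form, and steady-state reads cannot tell these apart.

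The exons on which the results turn are shown from GENCODE 29 transcripts of the same gene, matched by exon and intron lengths, with the GRCh37 positions of the deposited tables. The EIF4A2 set is shown because its exons carry or lead to a stop codon. Capitals mark the stop codon in the 107-nucleotide (nt) exon (chr3:186506099-186506205, + strand) and in the start of the 169-nt exon (chr3:186503672-186503840), which is read to that TGA when the 140-nt exon is left out. In the 140-nt exon (chr3:186502751-186502890) they mark the codons of the ATP-binding P-loop motif.
EIF4A2 107-nt exon, first 10 bases: gagtcgaTAG
EIF4A2 140-nt exon: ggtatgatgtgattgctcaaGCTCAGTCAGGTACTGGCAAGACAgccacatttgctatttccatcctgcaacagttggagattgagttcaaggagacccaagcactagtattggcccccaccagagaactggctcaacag
EIF4A2 169-nt exon, first 83 bases: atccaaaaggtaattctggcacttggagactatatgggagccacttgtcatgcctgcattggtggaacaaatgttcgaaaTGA

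The coding exons of the other factors that changed are shown to let their reading lengths be compared. Capitals in the longer PABPC4 form mark the bases beyond the 73-nt form (chr1:40030373-40030445, − strand). The longer form has its lower coordinate at 40030358. The 87-nt PABPC4 exon lies at chr1:40029508-40029594, the EIF4G2 exon at chr11:10823208-10823321 and the EIF4G3 exon at chr1:21327692-21327805, all on the − strand. The EIF4H exon lies at chr7:73604577-73604636 and the EEF2K exon at chr16:22268964-22269091, both on the + strand. The lengths of the EIF4G2, EIF4G3, EIF4H and 87-nt PABPC4 exons are multiples of 3, so skipping them keeps the frame, while 73, 88 and 128 are not.
PABPC4 73-nt form: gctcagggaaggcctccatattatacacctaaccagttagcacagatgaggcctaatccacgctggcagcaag
PABPC4 88-nt form: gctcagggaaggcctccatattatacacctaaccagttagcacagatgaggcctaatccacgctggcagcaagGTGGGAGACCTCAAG
PABPC4 87-nt exon: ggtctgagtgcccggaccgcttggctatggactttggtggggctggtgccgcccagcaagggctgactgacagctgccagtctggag
EIF4G2 114-nt exon: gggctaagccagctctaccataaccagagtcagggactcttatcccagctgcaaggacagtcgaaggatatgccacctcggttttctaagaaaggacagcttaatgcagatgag
EIF4G3 114-nt exon: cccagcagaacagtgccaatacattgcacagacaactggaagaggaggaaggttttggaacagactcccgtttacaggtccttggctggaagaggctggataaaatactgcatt
EIF4H 60-nt exon: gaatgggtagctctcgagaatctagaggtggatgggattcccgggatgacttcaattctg
EEF2K 128-nt exon: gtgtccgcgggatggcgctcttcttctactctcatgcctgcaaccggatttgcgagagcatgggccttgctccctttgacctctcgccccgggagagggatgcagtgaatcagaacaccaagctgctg

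Most tested translation factor events had a control inclusion level over 0.9 in both lines, and few changed. The inclusion level is the share of transcripts that keep the exon, from 0 to 1, computed from the length-corrected junction reads. An event was tested where every library had at least 20 reads and the rarer form at least 10 reads over the fit. This left 244 member events of 49 genes in MCF10A and 274 of 51 genes in HMLE TWIST. The rarer form was too rare in 311 and 378 events, and 43 and 70 had too few reads. Of the 63 genes, 53 had an event tested in at least 1 line. The 10 others were EEF2, EIF1AD, EIF1B-AS1, EIF2AK3, EIF2B2, EIF3J-AS1, EIF4E3, EIF4EBP1, EIF5A2 and EIF5B.

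An event was called changed at an adjusted p under 0.05 in the quasi-binomial model with an absolute change of at least 0.1. In MCF10A 14 of 244 member events changed (5.74%), against 13.8% of all 25522 tested events. Of the 14, 9 were higher and 5 lower under emetine, where 8.37% of all tested events were higher and 5.48% lower. In HMLE TWIST 22 of 274 changed (8.03%), 9 higher and 13 lower, against 15.0% of all 30290, with 6.66% higher and 8.32% lower. With no length correction the calls were 8 higher and 2 lower in MCF10A and 11 higher and 8 lower in HMLE TWIST, so the balance of directions in HMLE TWIST turns on that correction. Limma on the log odds called 8 member events in MCF10A (4 higher, 4 lower; 7.88% of all events) and 15 in HMLE TWIST (6 higher, 9 lower; 9.94% of all events). Events of a gene often share reads. With 1 event per exon, 8 of 188 member events were called in MCF10A (4.26%; 13.5% of all events). In HMLE TWIST 12 of 218 were called (5.5%; 14.6% of all events).

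Member events were deeper and closer to full inclusion than the rest. Their median depth was 2452 reads per library in MCF10A and 1737 in HMLE TWIST, against 424.5 and 443.25 over all tested events. In the control libraries 67.6% of member events in MCF10A and 73.0% in HMLE TWIST had a level over 0.9, against 57.2% and 62.3% of all tested events. The median absolute change of member events was 0.00682 in MCF10A and 0.00881 in HMLE TWIST, and that of all events was 0.0239 and 0.0255. The share with an adjusted p under 0.05 at any size of change was 39.8% for members and 36.5% for all in MCF10A, and 43.4% and 39.8% in HMLE TWIST. The members' lower share of calls thus goes with smaller changes. Among events whose control level lay between 0.1 and 0.9, 9 of 33 member events changed in MCF10A (27.3%; 32.4% of all events) and 7 of 28 in HMLE TWIST (25%; 36.1% of all events). Of those over 0.9, 3 of 165 and 9 of 200 changed (1.82% and 4.5%), against 5.90% and 8.65% of all. Of those under 0.1, 2 of 46 changed in MCF10A (4.35%; 15.5% of all). In HMLE TWIST 6 of 46 did (13.0%; 11.6% of all), so there the member share was not the lower one.

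EIF4A2, an RNA helicase of the cap-binding complex EIF4F, held the largest changes among the tested translation factor events of both lines. It had 11 events listed and 8 tested. Its 107-nt exon is annotated in transcripts marked as targets of nonsense-mediated decay, and its skipping form is protein coding. In MCF10A the level was 0.438 and 0.491 in the control libraries and 0.943 and 0.938 under emetine. HMLE TWIST had 0.114 and 0.0657 in the control and 0.866 and 0.841 under emetine. The control libraries of the lines lay far apart, the emetine libraries were all above 0.84, and no treated library overlapped a control library.

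The change was 0.476 in MCF10A (adjusted p = 2.39e-274 by the quasi-binomial model and 0.0145 by limma) and 0.764 in HMLE TWIST. In HMLE TWIST the shared-dispersion adjusted p was too small to be written as a number. With the event's own dispersion it was 2.68e-61, and by limma it was 0.0113. The very small values rest on a dispersion shared by all events, and with 2 libraries a group limma's values give the more cautious reading. That this exon rose in HMLE TWIST was known when it was chosen, so its value there is a description. Without the length correction the MCF10A change was 0.335.

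Both read classes of the 107-nt exon differed between control and emetine libraries. Reads are given here as parts per 1000000 junction reads of the library. Those that include the exon were at 14.0 and 16.9 in the MCF10A control libraries and 61.2 and 49.4 under emetine. HMLE TWIST had 4.34 and 2.43 before and 51.4 and 36.4 after treatment. Reads of the skipping junction were at 8.98 and 8.75 in MCF10A control and 1.84 and 1.62 under emetine, and 16.9 and 17.3 against 3.98 and 3.44 in HMLE TWIST. Thus the coding, skipping form had fewer reads under emetine in all 4 treated libraries, and the decay form had more. A longer 111-nt form with the same start shares these reads and rose by 0.432 in MCF10A and by 0.755 in HMLE TWIST.

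**Figure D1:**
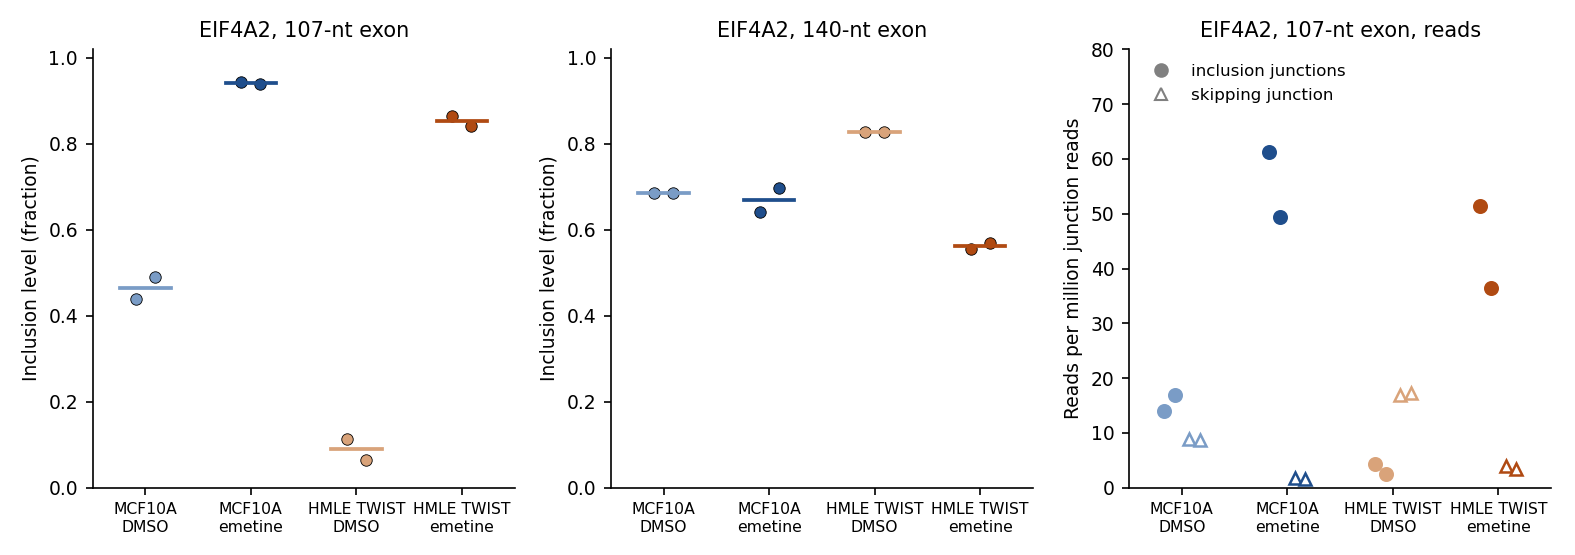
Inclusion levels of the EIF4A2 107-nt and 140-nt exons (left and middle, fraction from 0 to 1) and junction reads of the 107-nt exon per 1000000 junction reads (right), for the 4 groups. Points are libraries and lines are means of 2 libraries. The 107-nt exon lay above 0.84 in all emetine libraries, and the 140-nt exon was at 0.556 and 0.570 in HMLE TWIST under emetine against 0.828 in both control libraries.

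The 140-nt exon of EIF4A2 changed in HMLE TWIST alone of the 2 lines, and the difference between the lines passed the test. It codes for the P-loop shown above, and the form without it is annotated as a decay target. In HMLE TWIST the level was 0.828 in both control libraries and 0.556 and 0.570 under emetine, a change of −0.266 (adjusted p = 9.04e-94, limma 0.033). MCF10A had 0.687 and 0.686 in the control and 0.640 and 0.697 under emetine (change −0.0175, adjusted p = 0.251), and these groups overlap. The response in HMLE TWIST was lower than that in MCF10A by 0.248 (−0.248; adjusted p = 2.86e-36, limma 0.213). Skipping reads in HMLE TWIST were 314 and 310 in the control and 1267 and 969 under emetine, while inclusion reads were 3025 and 2992 in the control and 3167 and 2565 under emetine. In MCF10A both read classes were higher under emetine, with inclusion reads of 1968 and 2141 against 3955 and 3579 and skipping reads of 449 and 491 against 1110 and 779.

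The other EIF4A2 exons tested stayed near full inclusion. Levels of the 169-, 106-, 90-, 49- and 46-nt exons were at least 0.964 in every library. Their largest tested change was 0.0227, for the 106-nt exon in HMLE TWIST (adjusted p = 0.000162), far under the size threshold.

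The scaffold proteins of the EIF4G group each had a changed exon. EIF4G1 and EIF4G3 hold the cap-binding protein and the helicase together, and EIF4G2 is a relative that lacks the cap-binding contact. The EIF4G2 114-nt exon had levels of 0.881 and 0.892 in MCF10A control and 0.716 and 0.707 under emetine, and it fell by 0.175 (adjusted p = 1.43e-111, limma 0.0482). HMLE TWIST had 0.870 and 0.869 in the control and 0.798 and 0.796 under emetine, a change of −0.0731 that missed the size threshold (adjusted p = 1.05e-26, limma 0.219). The groups did not overlap in either line. The difference of the responses was 0.102 (adjusted p = 5.49e-14). It was 0.0961 without the second MCF10A control library and 0.0978 without the second MCF10A emetine library, and 0.0649 with no length correction, all under the size threshold.

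The EIF4G3 114-nt exon fell in HMLE TWIST. Its level there was 0.254 and 0.299 in the control and 0.0972 and 0.106 under emetine (change −0.175, adjusted p = 9.14e-09, limma 0.0436). In MCF10A it was 0.233 and 0.210 in the control and 0.224 and 0.256 under emetine, and the groups overlap. The responses differed by −0.193 (adjusted p = 8.04e-05).

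EIF4G1 changed at different exons in the 2 lines. Its 87-nt exon (chr3:184033920-184034006), chosen after its values were seen, had 0.937 and 0.955 in MCF10A control and 0.780 and 0.790 under emetine (change −0.162, adjusted p = 7.77e-15, limma 0.0303). HMLE TWIST had 0.888 and 0.821 in the control and 0.851 and 0.888 under emetine, overlapping groups, and the difference of response was 0.176 (adjusted p = 1.07e-08). A 94-nt exon just upstream (chr3:184033551-184033644) went from 0.296 and 0.264 to 0.442 and 0.544 in HMLE TWIST, a rise of 0.213 (adjusted p = 8.08e-05, limma 0.0965). In MCF10A it was 0.284 and 0.469 in the control, wider apart than the emetine libraries at 0.316 and 0.361. The difference of response for this exon, 0.251, had an adjusted p of 0.0493. It missed the threshold with the event's own dispersion (0.138) and with a minimum of 10 reads (0.0501). It also did so when any library except the first MCF10A control and the first HMLE TWIST emetine library was left out, with adjusted p from 0.0559 to 0.481.

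EIF4H, which stimulates the EIF4A helicases, differed more between the lines than with treatment. Inclusion of its 60-nt exon was 0.469 and 0.506 in MCF10A control, 0.588 and 0.605 in MCF10A emetine, 0.311 and 0.238 in HMLE TWIST control and 0.294 and 0.280 in HMLE TWIST emetine. The MCF10A change was 0.109 (adjusted p = 1.88e-28, limma 0.297). It was 0.0901 without the first MCF10A control library and 0.0995 with no length correction, both under the size threshold. HMLE TWIST control lay 0.213 below MCF10A control (change −0.213, adjusted p = 2.18e-122, limma 0.207), and no library of either line overlapped the other line. The responses differed by −0.0968, just under the size threshold (adjusted p = 2.00e-08, 0.432 with the event's own dispersion, limma 0.679). The difference passed the size threshold at −0.134 to −0.103 without the second MCF10A control, first MCF10A emetine, second HMLE TWIST control or first HMLE TWIST emetine library, and was −0.0600 (adjusted p = 0.122) without the first HMLE TWIST control library.

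**Figure D2:**
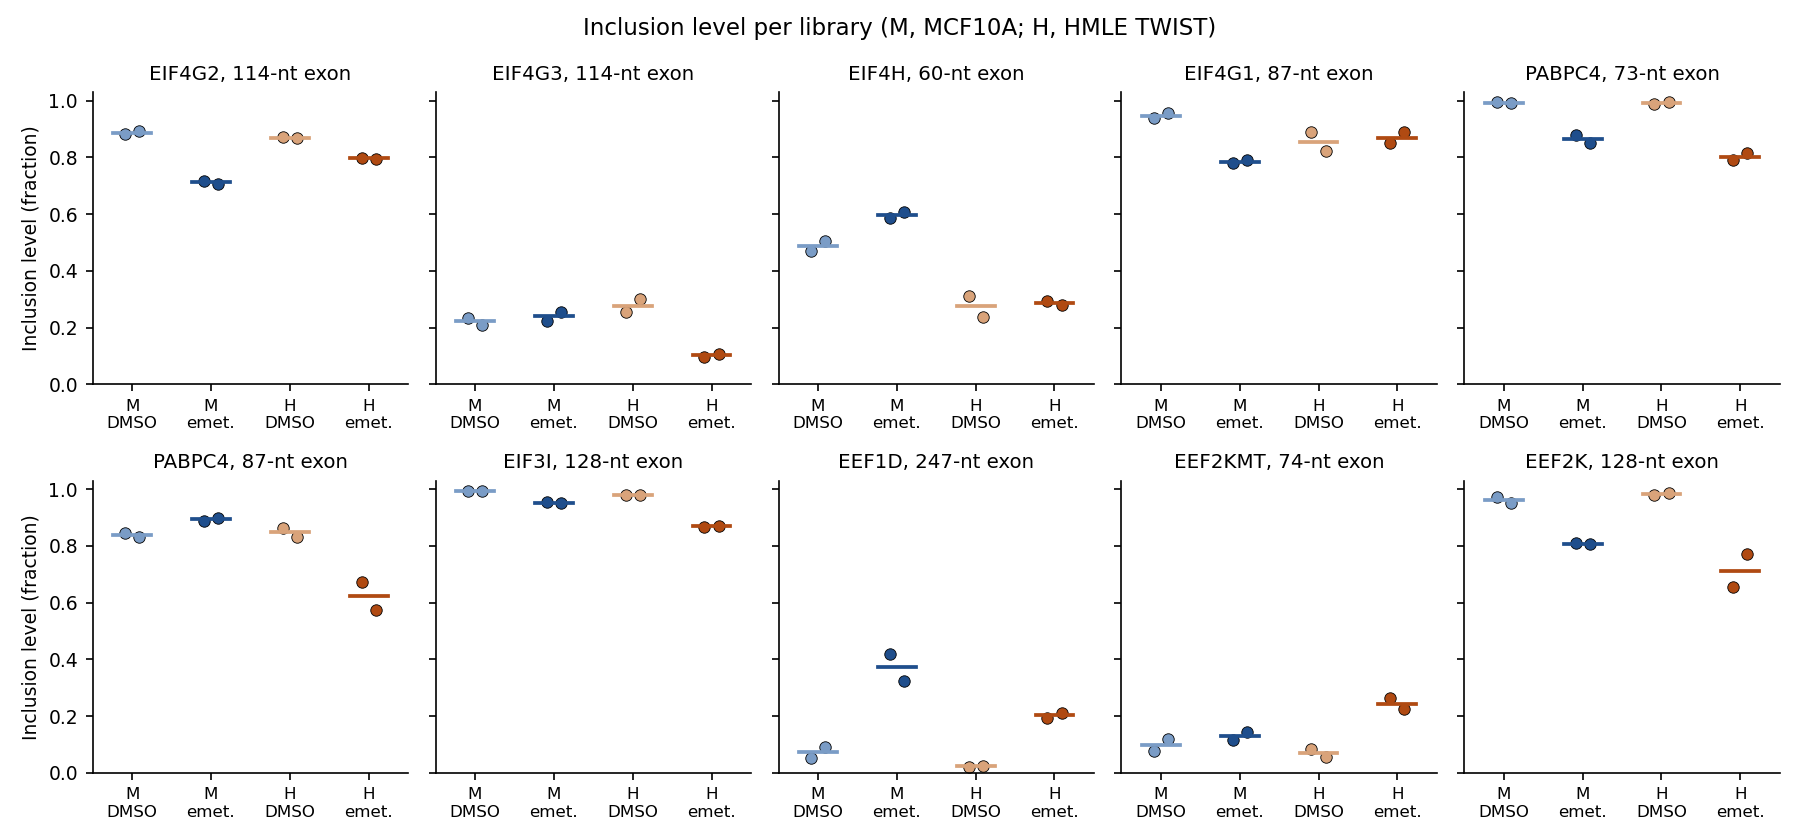
Inclusion level (fraction) in each library for 10 translation factor exons, with MCF10A (M) in blue and HMLE TWIST (H) in orange, darker under emetine. Points are libraries and lines are means of 2 libraries. The PABPC4 73-nt and EEF2K exons fell in both lines and the EEF1D 247-nt exon rose in both, while the EIF4G3, EEF2KMT and PABPC4 87-nt exons passed the thresholds in HMLE TWIST.

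Among the termination and poly(A)-binding genes, PABPC4 was the gene with changed exons. It binds the poly(A) tail and contacts EIF4G, as PABPC1 does. The 73-nt form was at 0.994 and 0.991 in MCF10A control and 0.879 and 0.850 under emetine (change −0.128, adjusted p = 1.97e-20, limma 0.0145). HMLE TWIST had 0.989 and 0.996 in the control and 0.790 and 0.814 under emetine (change −0.191, adjusted p = 1.56e-41, limma 0.0123). It fell in both lines with no overlap, and its skipping form is annotated as noncoding. Skipping reads were 7 and 9 in MCF10A control and 36 and 50 under emetine, and 12 and 4 against 96 and 90 in HMLE TWIST. Reads that include it were fewer as well, with 1885 and 1711 in MCF10A control and 453 and 490 under emetine, and 1813 and 1794 against 622 and 681 in HMLE TWIST. With no length correction the MCF10A change was −0.0786, under the size threshold. The 88-nt form, chosen after its values were seen, uses 15 more bases and fell by 0.107 in HMLE TWIST.

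The 87-nt exon of PABPC4 was called in HMLE TWIST alone, where it fell, and its smaller, uncalled shift in MCF10A was upward. HMLE TWIST had levels of 0.863 and 0.832 in the control and 0.674 and 0.575 under emetine (change −0.223, adjusted p = 1.21e-27, limma 0.0547). MCF10A had 0.846 and 0.832 in the control and 0.889 and 0.898 under emetine, a change of 0.0547 that missed the size threshold (adjusted p = 0.0156, limma 0.271). The difference of response was −0.278 (adjusted p = 2.44e-15, limma 0.164), and with another neighbouring exon it was −0.143 (adjusted p = 0.00624). Control levels of the 2 lines differed by 0.0085 (adjusted p = 0.752). No event of ETF1, GSPT1 or PABPC1 was called in either line. Their changes lay between −0.0116 and 0.00552 in MCF10A and, in HMLE TWIST, between −0.0292 and 0.000565.

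Every called event of the elongation factors themselves belonged to EEF1D, the exchange factor subunit that reloads EEF1A with GTP. EEF1D made up 34 of the 40 tested elongation factor events in MCF10A and 30 of 38 in HMLE TWIST, and 7 were called in each line (6 higher and 1 lower, and 4 higher and 3 lower). Its events share neighbouring exons and therefore reads, and they are not independent. EEF1D lies on the − strand. The 247-nt exon (chr8:144674817-144675063) joined to the exon with its higher coordinate at 144672908 was at 0.0533 and 0.0896 in MCF10A control and 0.418 and 0.324 under emetine (change 0.300, adjusted p = 2.17e-07, limma 0.0265). HMLE TWIST had 0.0200 and 0.0248 in the control and 0.193 and 0.212 under emetine (change 0.180, adjusted p = 5.63e-05, limma 0.013). These levels rest on 49 to 95 reads a library in MCF10A and 51 to 83 in HMLE TWIST. Forms of 151 and 296 nt with the same lower coordinate rose in both lines too. The 151-nt form, chosen after its values were seen, had changes of 0.281 and 0.132 with limma adjusted p of 0.0226 and 0.0135. The 296-nt form, and the 247-nt form joined to another exon, were not called by limma in either line. Both lost the HMLE TWIST call without the first control library (changes of 0.0723 and 0.0947) or without the second emetine library (adjusted p of 0.181 and 0.0674). The 296-nt form also lost the MCF10A call without the second emetine library (adjusted p = 0.112).

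Other EEF1D calls were less firm. A 128-nt exon joined to the exon with its lower coordinate at 144674817, chosen after its values were seen, had changes of −0.198 in MCF10A and −0.182 in HMLE TWIST. Its adjusted p was 0.367 and 0.395 with the event's own dispersion and 0.237 and 0.312 by limma. A 179-nt exon, chosen after its values were seen, rose by 0.321 in MCF10A (adjusted p = 0.000473, limma 0.0609), and in HMLE TWIST its change was 0.0405 (adjusted p = 0.554). A 131-nt exon, also chosen after its values were seen, was called in opposite directions, with 0.941 and 0.825 against 0.972 and 1 in MCF10A and 0.945 and 1 against 0.925 and 0.673 in HMLE TWIST. For this exon no emetine library overlapped a control library in either line. Its adjusted p was 0.0464 in MCF10A and 0.0103 in HMLE TWIST, but 0.0832 and 0.230 with the event's own dispersion and 0.0905 and 0.150 by limma, neither of which called it. A 421-nt exon fell in HMLE TWIST from 0.965 and 0.981 to 0.823 and 0.780 (change −0.172, adjusted p = 0.00521, limma 0.0198). Its adjusted p was 0.0685 without the second HMLE TWIST control library, and its change was −0.0970 with no length correction. A deeply read 72-nt exon, chosen after its values were seen, was at 0.952 and 0.954 in MCF10A control and 0.858 and 0.842 in HMLE TWIST control.

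The enzymes that modify elongation factor EEF2 had changed exons in both lines or in HMLE TWIST. EEF2K, the kinase that slows elongation by phosphorylating EEF2, had a 128-nt exon whose inclusion level was lower under emetine in each line. It was at 0.972 and 0.951 in MCF10A control and 0.808 and 0.806 under emetine (change −0.154, adjusted p = 0.00853, limma 0.0274). Its shallowest MCF10A library held 56 reads. Skipping reads in MCF10A were 6 and 12 in the control and 7 and 6 under emetine, so they were not more. Inclusion reads there were 415 and 467 in the control and 59 and 50 under emetine. The adjusted p was 0.0864 and 0.0625 when the first or the second MCF10A emetine library was left out, and the change was −0.0869 with no length correction, each ending the MCF10A call. HMLE TWIST had 0.977 and 0.987 in the control and 0.655 and 0.769 under emetine (change −0.270, adjusted p = 6.54e-10, limma 0.0123). Its skipping reads were 6 and 3 in the control and 20 and 15 under emetine. Its inclusion reads were 518 and 454 against 76 and 100. The tables list this exon with a different downstream exon in each line, so the difference of response could not be tested.

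EEF2KMT, a lysine methyltransferase of EEF2, has a 74-nt exon (chr16:5147281-5147354) annotated in decay transcripts. In HMLE TWIST it rose from 0.0849 and 0.0564 to 0.265 and 0.223 (change 0.173, adjusted p = 1.79e-07, limma 0.036). MCF10A had 0.0760 and 0.120 in the control and 0.114 and 0.142 under emetine, which overlap. The difference of response, 0.143, missed the threshold (adjusted p = 0.144).

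EIF3 is the scaffold of many subunits that recruits the small ribosomal subunit. In MCF10A 0 of its 71 events were called by the quasi-binomial model and 0 by limma. At an unadjusted p under 0.05 in the quasi-binomial model there were 34 of the 71, beside 11314 of all 25522 tested events. In HMLE TWIST 3 of 72 EIF3 events were called by each model. There 37 had an unadjusted p under 0.05 in the quasi-binomial model, beside 14387 of all 30290 tested events. The smallest adjusted p in MCF10A was at a 157-nt exon of the subunit EIF3H, with levels of 0.995 in both control libraries and 0.965 and 0.966 under emetine (limma 0.0177). A 118-nt decay exon of the subunit EIF3G was at 0.0144 and 0.0180 in MCF10A control and 0.0475 and 0.0481 under emetine, and at 0.0201 and 0.0189 against 0.0723 and 0.0577 in HMLE TWIST. These shifts were under the size threshold. All 3 HMLE TWIST calls were in EIF3I and were chosen after their values were seen. The 128-nt exon was at 0.979 in both control libraries and 0.867 and 0.871 under emetine (change −0.110, adjusted p = 2.43e-48, limma 0.0155). In MCF10A it was at 0.994 and 0.993 in the control and 0.954 and 0.949 under emetine, a change of −0.0422 under the size threshold. A neighbouring 150-nt exon shares the skipping junction of that event and fell by 0.101 in HMLE TWIST.

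With another upstream exon, the same 150-nt EIF3I exon was at 0.160 and 0.175 in HMLE TWIST control and 0.792 and 0.730 under emetine, a rise of 0.594 (adjusted p = 8e-10, limma 0.0116). Its shallowest library held 29 reads. MCF10A showed 0.176 and 0.0370 in the control and 0.708 and 0.639 under emetine, but a library with 10 reads kept it from being tested. In the ternary complex group, which delivers the initiator tRNA and selects the start codon, 0 of 20 and 1 of 24 events were called, with 0 and 1 by limma and 11 and 13 at an unadjusted p under 0.05. The call was a 104-nt exon of EIF2D, an alternative tRNA delivery factor, chosen after its values were seen. It fell in HMLE TWIST from 0.983 in both control libraries to 0.896 and 0.862 (change −0.104, adjusted p = 4.54e-08, limma 0.0165). A 121-nt exon of the same gene was at 0.00780 and 0.00261 in MCF10A control and 0.0674 and 0.0407 under emetine (change 0.0488, adjusted p = 3.85e-26, limma 0.0334). In HMLE TWIST it was at 0.00315 and 0.00609 in the control and 0.0557 and 0.0457 under emetine, and both changes were under the size threshold.

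Families with no call still held small shifts, given here by the exon with the smallest adjusted p. Their counts at an unadjusted p under 0.05 in the quasi-binomial model stand beside 11314 of all 25522 tested events in MCF10A. In HMLE TWIST they stand beside 14387 of all 30290. EIF2B is the exchange factor that reactivates EIF2 and is the point at which the integrated stress response acts. It had 0 of 12 and 0 of 19 events called by the quasi-binomial model and 0 by limma, with 6 and 14 at an unadjusted p under 0.05. A 93-nt exon of its catalytic subunit gene EIF2B5 is annotated in a decay transcript, and its first 45 bases (chr3:183856635-183856727 is the whole exon, + strand) end in a stop codon, in capitals.
EIF2B5 93-nt exon, first 45 bases: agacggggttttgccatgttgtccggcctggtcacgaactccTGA
It was at 0.00979 and 0.0133 in MCF10A control and 0.0912 and 0.0862 under emetine (change 0.0772, adjusted p = 5.35e-20, limma 0.0182). HMLE TWIST had 0.0125 and 0.00686 against 0.0698 and 0.0498. The 67-nt decay exon of EIF2B3 was at 0.00234 and 0.00143 in HMLE TWIST control and 0.0918 and 0.0611 under emetine. All emetine libraries exceeded all control libraries for both exons, though neither change reached 0.1. With no length correction they did, at 0.136 for EIF2B5 in MCF10A and 0.118 for EIF2B3 in HMLE TWIST.

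None of the remaining families had an event called in either line. Among the EIF2 alpha kinases, which phosphorylate EIF2 under stress, 0 of 11 and 0 of 14 events were called by the quasi-binomial model and 0 by limma, with 5 and 1 at an unadjusted p under 0.05. The EIF2AK4 70-nt exon was at 0.996 in both MCF10A control libraries and 0.936 and 0.951 under emetine (adjusted p = 0.00264). The subunit joining factors had 0 of 9 events called in each line, 0 by limma, with 4 in each at an unadjusted p under 0.05. Among them EIF6, which keeps the ribosomal subunits apart until joining, had a 176-nt exon at 0.930 and 0.885 in MCF10A control and 0.820 and 0.824 under emetine (change −0.0856, adjusted p = 5.93e-21, limma 0.154). In HMLE TWIST its change was −0.0577. Without the second MCF10A control library the MCF10A change was −0.108, past the size threshold. EIF5A, the hypusine-bearing factor that helps ribosomes through stalling sequences, had a 95-nt exon whose level was at most 0.00249 in every library. Its 2 tested events were not called by the quasi-binomial model or limma, and 0 had an unadjusted p under 0.05. The EIF4E-binding repressors had no event tested in MCF10A and 2 of EIF4ENIF1 in HMLE TWIST, with changes of −0.0109 and 0.0124. Neither was called by either tool or had an unadjusted p under 0.05.

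**Figure D3:**
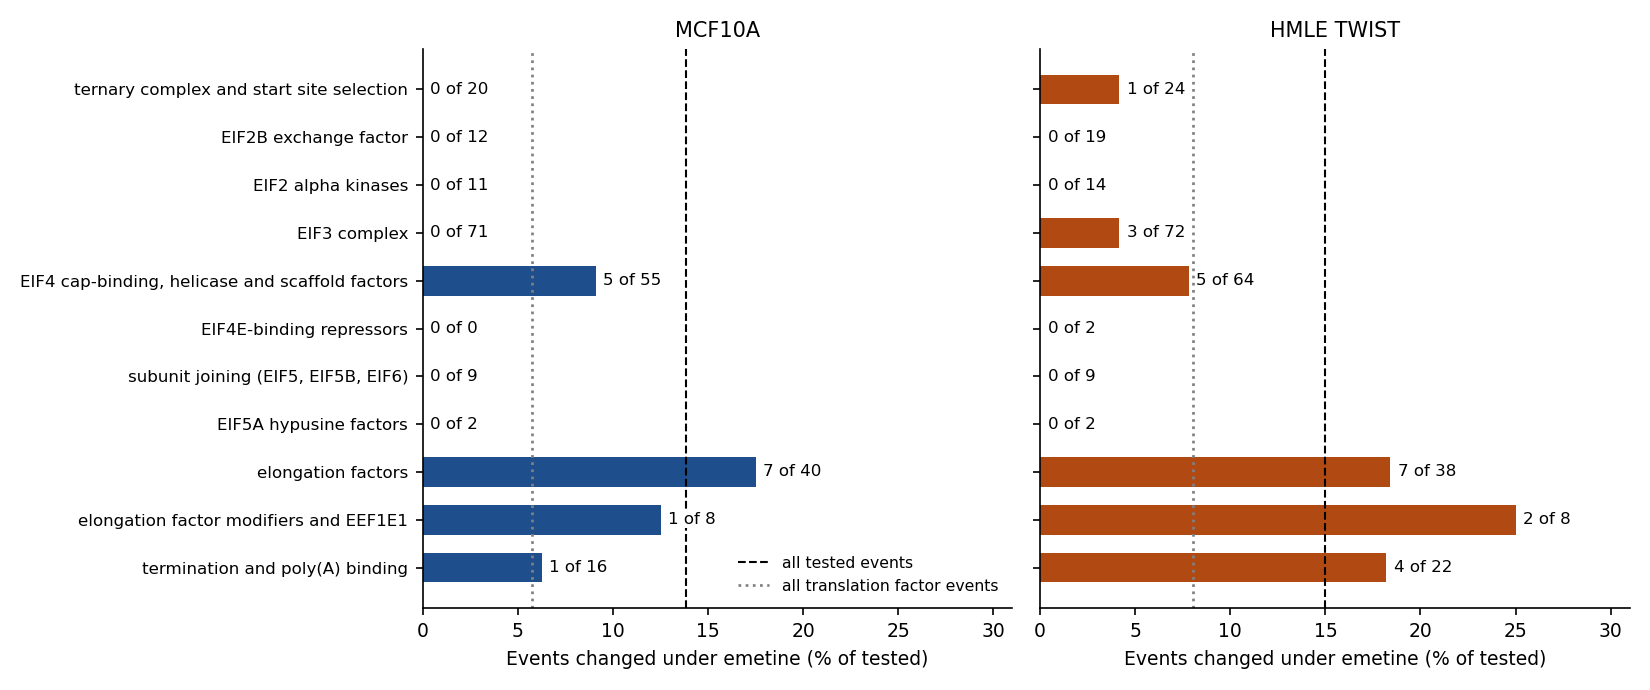
Share of tested events that changed under emetine (bars, percent, axis from 0) for 11 translation factor families in MCF10A and HMLE TWIST, with called and tested events beside each bar. The dashed line is the share over all tested events, 13.8% and 15.0%, and the dotted line that over all translation factor events, 5.74% and 8.03%. Elongation factors, all called events of which are EEF1D, were above the dashed line in both lines by the quasi-binomial calls shown. Limma called 2 of 40 and 3 of 38 of their events, and 7.88% and 9.94% of all tested events.

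Set side by side, the families differed in their counts, and no test of the family differences was made because events of a gene share reads. The EIF4 group had 5 of 55 events called in MCF10A (9.09%) and 5 of 64 in HMLE TWIST (7.81%). Elongation factors had 17.5% and 18.4%, all from the single gene EEF1D. The modifiers had 1 of 8 and 2 of 8, and termination with poly(A) binding had 1 of 16 (6.25%) and 4 of 22 (18.2%), all PABPC4. By limma the elongation factors had 2 of 40 and 3 of 38 events called, where limma called 7.88% and 9.94% of all tested events. Limma called 4 EIF4 events in each line, 1 and 2 of the modifiers, and 1 and 2 of termination with poly(A) binding. The order of the families thus depends on the model. The start site, EIF2B, EIF2 alpha kinase, EIF3, EIF5 and EIF5A families together had no call in MCF10A. Median changes stayed near 0 in every family, between −0.0132 and 0.00294 in MCF10A and between −0.0142 and 0.0143 in HMLE TWIST.

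Of the 195 member events tested in both lines, 13 were called in MCF10A, 19 in HMLE TWIST and 9 in both, which is 69.2% of the MCF10A calls and 47.4% of the HMLE TWIST calls. Of the 9, 6 were higher in both lines, 2 lower in both and 1 opposite, the EEF1D 131-nt exon. The 9 events were 8 exons of EIF4A2, EEF1D and PABPC4, and those of EIF4A2 and of EEF1D share reads. The matching shares over all 19025 events tested in both lines were not computed, so 69.2% and 47.4% have no background here.

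**Figure D4:**
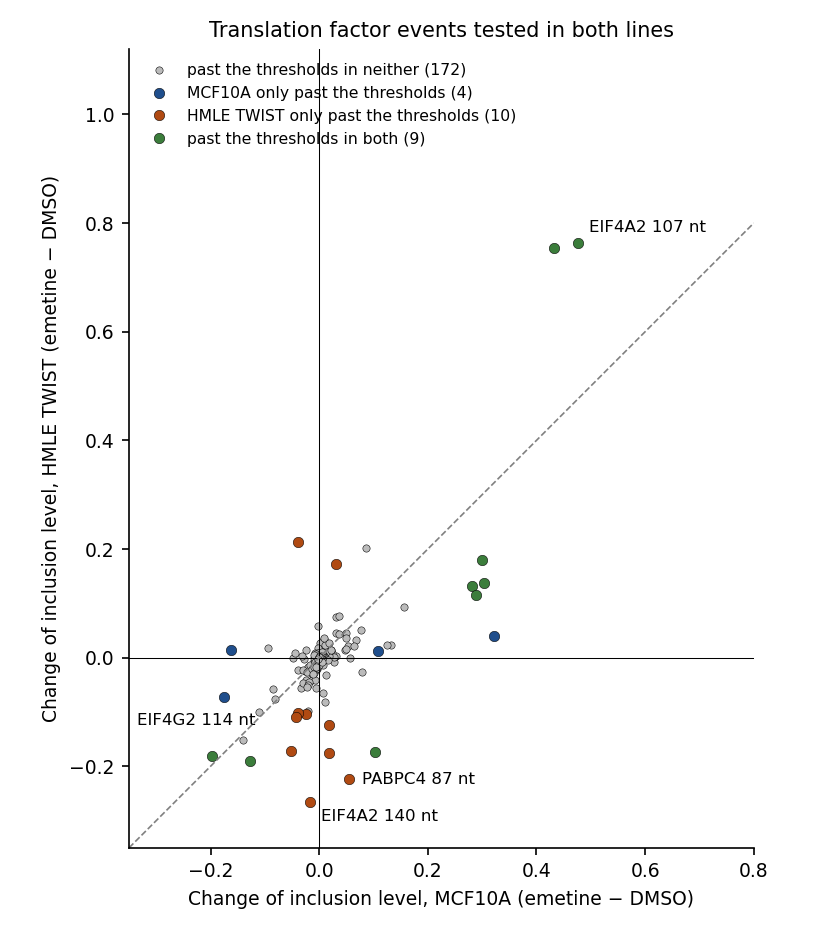
Change of inclusion level (emetine minus DMSO) in HMLE TWIST against MCF10A for the 195 member events tested in both lines, with the dashed line marking equal change. Colours give the lines in which the event passed the thresholds: 172 in neither, 4 in MCF10A only, 10 in HMLE TWIST only and 9 in both. The EIF4A2 107-nt exon stands above the line at 0.476 and 0.764, and the PABPC4 87-nt exon lies on opposite sides of 0.

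Of these 195 events, 11 responded differently in the 2 lines (5.64%; 3.05% of all 19025 events), 6 with a higher change in HMLE TWIST and 5 with a lower one (0.993% and 2.06% of all). The test is the line by treatment term, which acts on the log odds. The 11 events were in EIF4A2, EIF4G1, EIF4G2, EIF4G3, PABPC4 and EEF1D. The EIF4A2 107-nt exon rose by 0.288 more in HMLE TWIST (adjusted p = 5.53e-16, limma 0.272), from its lower control level. For the 111-nt form the difference was 0.322, and with the event's own dispersion its adjusted p was 0.0571, against 0.0422 for the 107-nt form. Limma called 0 member events and 0% of all events, with a smallest adjusted p of 0.112. At an unadjusted limma p under 0.05 were 28 of the 195 member events, beside 2826 of all 19025.

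Control levels differed between the lines in 11 of 185 member events (5.95%; 6.62% of all 19301), with 1 higher and 10 lower in HMLE TWIST (2.17% and 4.45% of all). The count was 7 without the second MCF10A control library, 7 without the first HMLE TWIST control library and 5 without the second. The EIF4A2 107-nt exon was lower by 0.375 (−0.375; adjusted p = 7.37e-203, limma 0.0914), and the 140-nt exon was higher by 0.142 (adjusted p = 5.59e-23, limma 0.222; 0.0922 with no length correction). EEF1D gave 6 of the lower events, from −0.206 to −0.103. Of the 3 that were largest, the 122- and 128-nt exons lost the call without the second MCF10A control library or either HMLE TWIST control library. The 91-nt exon did so without the first MCF10A control library or either HMLE TWIST one, and these adjusted p ran from 0.0700 to 0.188. A 36-nt exon of EIF3M, chosen after its values were seen, was at 0.115 and 0.130 in MCF10A control and 0.00108 and 0.00281 in HMLE TWIST control (difference −0.121, limma adjusted p = 0.0611). Limma called 0 member events here, with 0.187% of all events called. At an unadjusted limma p under 0.05 were 52 of the 185 member events, beside 4070 of all 19301.

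Annotation of the forms gave few member events per class. Where the inclusion form is annotated as decay or noncoding and the skipping form as coding, 2 of 22 member events changed in MCF10A and 3 of 21 in HMLE TWIST, all higher (9.09% and 14.3%; 22.2% and 18.3% of all such events). The 3 were the EIF4A2 107- and 111-nt forms and the EEF2KMT exon. Over all events of this class, 678 of 745 calls in MCF10A and 500 of 598 in HMLE TWIST were higher. In the mirror class, coding with the exon and decay or noncoding without it, 1 of 15 and 3 of 17 changed, all lower (17.0% and 22.9% of all). These were the PABPC4 73-nt form in both lines and, in HMLE TWIST, its 88-nt form and the EIF4A2 140-nt exon. Over all events of the mirror class, 307 of 375 calls in MCF10A and 499 of 575 in HMLE TWIST were lower.

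Other genes of the translation machinery were counted in 5 lists. The stress response and mTOR list had 7 of 56 events called in MCF10A (12.5%, 6 higher) and 10 of 65 in HMLE TWIST (15.4%, 5 higher), near the shares of all tested events, 13.8% and 15.0%. The exons named from these lists were chosen after their values were seen. A 75-nt decay exon of RPS6KB1, the kinase that phosphorylates ribosomal protein S6, went from 0.0288 and 0.0367 to 0.386 and 0.357 in MCF10A. Initiation helpers had 2 of 44 (4.55%) and 1 of 35 (2.86%) called, all lower, against 13.8% and 15.0% of all events. Ribosome recycling and rescue genes had 4 of 34 (11.8%) and 7 of 39 (17.9%), with 3 and 2 higher. Aminoacyl-tRNA synthetases had 14 of 90 called (15.6%), all higher and from 2 genes, in MCF10A and 13 of 119 (10.9%, 11 higher) in HMLE TWIST, against the same 13.8% and 15.0%. WARS, the tryptophanyl-tRNA synthetase, had an 85-nt exon at 0.0633 and 0.0671 in MCF10A control and 0.552 and 0.501 under emetine.

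Mitochondrial translation factors, which run protein synthesis inside the organelle, had 6 of 45 events called in MCF10A (13.3%, 4 higher and 2 lower) and 9 of 44 in HMLE TWIST (20.5%, 3 higher and 6 lower), beside 13.8% and 15.0% of all events. A 128-nt decay exon of the recycling factor MRRF was at 0.0937 and 0.0848 in MCF10A control and 0.443 and 0.455 under emetine, and at 0.0945 and 0.102 against 0.617 and 0.562 in HMLE TWIST. A 139-nt coding exon of GFM2, the other mitochondrial recycling factor, was at 0.913 and 0.938 in MCF10A control and 0.580 and 0.635 under emetine. HMLE TWIST had 0.964 and 0.933 against 0.554 and 0.550.

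By the authors' deposited table, 19 of 598 member events in MCF10A (13 higher and 6 lower under emetine) had an FDR under 0.05 and a difference of at least 0.1, which is 3.18% against 6.93% of all listed events. In HMLE TWIST the authors' deposited table had 28 of 722 (15 higher, 13 lower), 3.88% against 7.59%.

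Libraries held 78412292 to 91259363 junction reads summed over events, which count a read once for each event it serves. Member events took 3176179 to 3505775 of them in the control libraries and 2414816 to 2538375 under emetine, so their summed reads were lower in every treated library. The median tested member event had 2360.5 and 2510.5 reads in MCF10A control and 2340.5 and 2366 under emetine. In HMLE TWIST it had 1986.5 and 1679.5 against 2038.5 and 1660.5. A lower sum thus does not hold for each gene, and the part of depth in the results was not tested. Replicates of a group differed by a median of 0.00244 to 0.00474 in level over member events and 0.00940 to 0.0126 over all tested events.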

How the data were processed

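Polyadenylated RNA was sequenced as stranded paired-end libraries, per the labels' protocols, and reads were aligned with STAR 2.5.3a to GRCh37, per the submitters' processing notes. The authors deposited a skipped-exon table per line in the format of rMATS, whose version and annotation are not given in the sources used here. Per the file headers, the deposited junction counts give inclusion and skipping reads per event, with the replicates of a group in 1 cell. The deposited p-value and FDR, and the difference score, are the authors' own. The table's name lists the control before emetine, and the groups were read in that order, with the first value in a cell as replicate 1.

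The inclusion level divides the inclusion reads by their effective length (100 to 198) and the skipping reads by 99. The change is the emetine mean minus the control mean. All events with enough reads were fitted with a quasi-binomial logistic model (Python 3.11.15, numpy 2.4.6, pandas 2.3.3) whose dispersions were moderated by limma 3.58.1 (R 4.3.3) and floored at 1. The moderation gave 1 shared dispersion per fit, 1.97 in MCF10A, 1.95 in HMLE TWIST and between the controls, and 2.04 over all 8 libraries. P-values are two-sided and were adjusted by Benjamini-Hochberg over all events of the fit. Limma's own fit to the log2 odds, with 0.5 added to each count, was an alternative. Others were the read minimum, the filter on the rarer form, the length correction, the event's own dispersion, the replicate number as a block and leaving out each library. The models were tested on simulated data.

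No GRCh37 annotation was used here. Exons were matched to GENCODE 29 transcripts of the gene by the lengths of the exon and its introns, which matched 65.1% of member events and 66.9% of all, and no coordinates were converted. Exons are named by this rule: every tested EIF4A2 exon, the called exons with the largest change in each line (up to 12, at most 2 per gene), up to 8 called in both lines, up to 6 with the largest difference of response and of control level, and the exon with the smallest adjusted p in each family without a call. Exons outside it, those of the other lists included, are marked as chosen after their values were seen. The members, families and lists were chosen with earlier results of these data known.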

Additional observations from a re-analysis of the deposited data

Results flagged for a closer look

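The emetine response differed between the lines, by the line by treatment term, in 11 translation factor events (change in HMLE TWIST minus change in MCF10A). It was higher in HMLE TWIST for the EIF4A2 107-nt exon (0.288) and its 111-nt form (0.322), the EIF4G1 94-nt exon (0.251), the EIF4G1 87-nt exon with each of its upstream exons (0.176 and 0.112) and the EIF4G2 114-nt exon (0.102). It was lower for the EIF4A2 140-nt exon (−0.248), the EIF4G3 114-nt exon (−0.193), the PABPC4 87-nt exon with each of its upstream exons (−0.278 and −0.143) and the EEF1D 131-nt exon (−0.277). With the event's own dispersion the adjusted p was 0.0571 for the EIF4A2 111-nt form, 0.138 for the EIF4G1 94-nt exon and 0.214 for the EEF1D 131-nt exon.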

How the results depend on the processing

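Of 1322 recomputed values of the named exons, 1258 kept their direction and stayed called or uncalled, 57 lost the call, 7 gained one and 0 reversed. An uncalled value counted as kept could still cross the adjusted p threshold. The EIF6 exon in MCF10A did so, with an adjusted p of 5.93e-21 by the quasi-binomial model and 0.154 by limma. Of the 112 values recomputed by limma, called or not, 21 lost the call. The uncalled ones had no call to lose, so 21 of 112 understates the share of calls lost. The count of changed member events in MCF10A, 14, was 8 by limma, 24 at a change of at least 0.05 and 8 with 1 event per exon. It ran from 11 to 15 when each library was left out. In HMLE TWIST the count of 22 became 38 at 0.05 and 12 with 1 event per exon, and ran from 16 to 26 with a library left out. The 11 differences of response became 0 by limma and 7 with 1 event per exon, and ran from 8 to 12. The 11 control differences became 0 by limma and ran from 5 to 11. The cause was not tested. At a change of at least 0.05 the calls were 9.84% of member events in MCF10A (21.4% of all events). In HMLE TWIST they were 13.9% (23.3% of all events). With 1 event per exon they were 4.26% in MCF10A (13.5% of all) and 5.5% in HMLE TWIST (14.6% of all). For the difference of response with 1 event per exon they were 7 of 161 (4.35%; 3.03% of all). The EIF4A2 107-nt change lay between 0.335 and 0.502 in MCF10A and, in HMLE TWIST, between 0.740 and 0.788 over the alternatives, with adjusted p at most 0.0145 and 0.0113.

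Replicates of the same number deviated together with a correlation of 0.0390 in MCF10A and 0.0270 in HMLE TWIST, so the numbers were not taken to pair the samples. With the replicate block the counts were 14, 22, 11 and 11. Of the 112 values of named exons, called or not, 0 gained or lost a call. In MCF10A 13 of the 14 were also called without the block, and with it 8 were higher and 6 lower. Events under 20 reads in a library were not tested, and EEF1D events with about 50 reads are the least precise of those named.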
